A study of Rattus norvegicus with 96 samples.

Results

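Stab1 and Dab2, taken as genes of perivascular macrophages in the brain, were higher in the ventral tegmental area (VTA) than in the nucleus accumbens (NAc), by 1.51-fold to 1.75-fold. They varied together from library to library in each of 3 brain regions, with Pearson's r of 0.712 to 0.883, and followed meningeal fibroblast genes as well as border macrophage genes, so that these data do not assign them to either cell type. The microglial genes Cx3cr1, Csf1r and C1qa were also higher in VTA, by 1.12-fold to 1.59-fold, whereas Tmem119 was lower in VTA than in NAc core. For nicotine (NIC) against saline (SAL), edgeR called 0 of 16879 genes in each sex and region, and the members' differences, part of which served to choose them, are given as a description.

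The genes described are 6 of the 17637 genes of the count table, named as genes of microglia (Cx3cr1, Csf1r, Tmem119 and C1qa) and of perivascular macrophages (Stab1 and Dab2). All 6 were among the 16879 genes that passed the filter on low counts. Their identifiers in the table are ENSRNOG00000018509 for Cx3cr1, ENSRNOG00000018414 for Csf1r, ENSRNOG00000000700 for Tmem119, ENSRNOG00000012807 for C1qa, ENSRNOG00000018434 for Stab1 and ENSRNOG00000028930 for Dab2. They were in part selected on measured values: Cx3cr1, Csf1r, Stab1 and Dab2 stand in the study's tables of genes changed by NIC, each in certain sexes and regions, and for those combinations the NIC and SAL values below are a description without a test. Tmem119 and C1qa stand in none of these tables.

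Microglia are the resident macrophages of the brain tissue, and perivascular macrophages are their relatives on the outer side of blood vessels. Csf1r is the receptor for the growth factors Csf1 and Il34, on whose signals microglia depend for survival, and Cx3cr1 is the receptor for fractalkine (Cx3cl1), a ligand that neurons display. C1qa is a chain of the first complement component, Tmem119 is a surface marker of microglia, Stab1 is a scavenger receptor of macrophages and some endothelia, and Dab2 is an adaptor that links receptors to clathrin during endocytosis.

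The rats were F1 progeny of the inbred strains F344 and BN, bred in both directions of the cross, in early adulthood. NIC rats were given 0.4 mg/kg of nicotine (base) once a day for 4 days and SAL rats were given saline on the same days. Whole tissue was dissected by hand on day 17 without a further injection, so the comparison of NIC with SAL concerns what remained after the injections ended. Total RNA of VTA, NAc core and NAc shell was sequenced from 16 rats per sex, except that male SAL 3 had no VTA library. Each of the 12 groups of a sex, region and treatment held 7 or 8 analysed libraries. The first number of a library's title was taken as its rat, which the labels do not state. In these labels sex goes with the box, and only 1 of 10 prep batches holds both sexes, so sex, box and prep batch cannot be told apart. Treatment also goes largely with prep batch. Male SAL libraries are in prep batches A, B and C and male NIC libraries in C, D and L. Female NIC libraries are in G, H, I, J and L and female SAL libraries in J, K and L. The NIC comparisons are therefore in part comparisons between prep batches.

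Of 96 libraries, 94 were analysed: 31 of VTA, 31 of NAc core and 32 of NAc shell, with total counts from 15868529 to 27736905 and a median of 19878648. The tissue check used Th, the rate-limiting enzyme of dopamine synthesis, which lay between 316 and 898 CPM (counts-per-million, the count divided by the TMM-scaled library total) in 30 VTA libraries and reached at most 3.85 CPM in NAc. Female VTA NIC 2 stood apart, with 17.9 CPM of Th, 1168 CPM of Nrgn (a forebrain neuron gene, at most 499 CPM in the other VTA libraries) and 2779 summed CPM of choroid plexus genes, and members' values that it moves are given without it. In NAc, Drd1, a dopamine receptor of striatal projection neurons, lay between 37.7 and 156 CPM in 59 libraries. It was 5.08 to 23.5 CPM in the other 4, male NAc core SAL 1 and 3, male NAc core NIC 10 and male NAc shell SAL 1, whose 6 summed striatal projection neuron genes lay between 240 and 681 CPM against 951 to 4393 CPM. These 4 were set apart at 30 CPM of Drd1 after seeing the data, and each of the 6 members in them lay within its range in the other 59. The library labelled female NAc core NIC 1 had 331 CPM of Th and was left out, as was the first run of male VTA SAL 5, whose counts differed from its second run by a chi-square of 3.03 per degree of freedom, against 9.07 to 36.8 for 15 other pairs of libraries.

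Windows of the 250 bases upstream of the annotated gene start, from RefSeq on the build GRCr8, were at hand for 5 of the 6 members. Those of Stab1 and Dab2 are shown because these genes varied together, and that of C1qa because it is a microglial gene whose window holds repeated matches to a macrophage motif. Capitals mark GAGGAA, the core of the PU box bound by the myeloid factor PU.1, and TGCTGA, the core of sites bound by MAF factors, on either strand. The windows are chr16:6367360-6367609 on the minus strand for Stab1, chr2:57272050-57272299 on the plus strand for Dab2 and chr5:154419934-154420183 on the minus strand for C1qa, each written in the direction of the gene.
Stab1: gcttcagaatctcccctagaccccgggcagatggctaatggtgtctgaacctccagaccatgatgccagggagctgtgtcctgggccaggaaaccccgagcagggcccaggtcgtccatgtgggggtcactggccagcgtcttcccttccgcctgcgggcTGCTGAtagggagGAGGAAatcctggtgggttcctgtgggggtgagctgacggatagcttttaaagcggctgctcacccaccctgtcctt
Dab2: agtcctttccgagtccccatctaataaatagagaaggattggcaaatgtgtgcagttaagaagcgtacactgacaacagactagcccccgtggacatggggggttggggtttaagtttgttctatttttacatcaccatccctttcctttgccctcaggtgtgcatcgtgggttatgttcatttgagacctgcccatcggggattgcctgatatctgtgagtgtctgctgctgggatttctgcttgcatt
C1qa: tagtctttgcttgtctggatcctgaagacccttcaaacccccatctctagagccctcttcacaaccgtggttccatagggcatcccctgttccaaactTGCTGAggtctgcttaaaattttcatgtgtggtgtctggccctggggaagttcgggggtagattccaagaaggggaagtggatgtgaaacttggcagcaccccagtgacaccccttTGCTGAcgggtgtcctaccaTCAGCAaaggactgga
The Stab1 window holds 1 PU box core and 1 MAF core, the C1qa window 3 MAF cores, and the Dab2 window neither. Of the windows not printed, that of Csf1r on chromosome 18 holds 2 PU box cores, and that of Cx3cr1 on chromosome 8 holds neither motif. Among 33469 promoter windows of the same length, 23.3% held GAGGAA and 15.1% held TGCTGA on either strand. The letters TATAAA of the classical core promoter element were in 12.9% of them and in none of these 5. The motifs overlap in none of the printed windows. A match describes letters in a window and not a bound site.

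**Figure D1:**
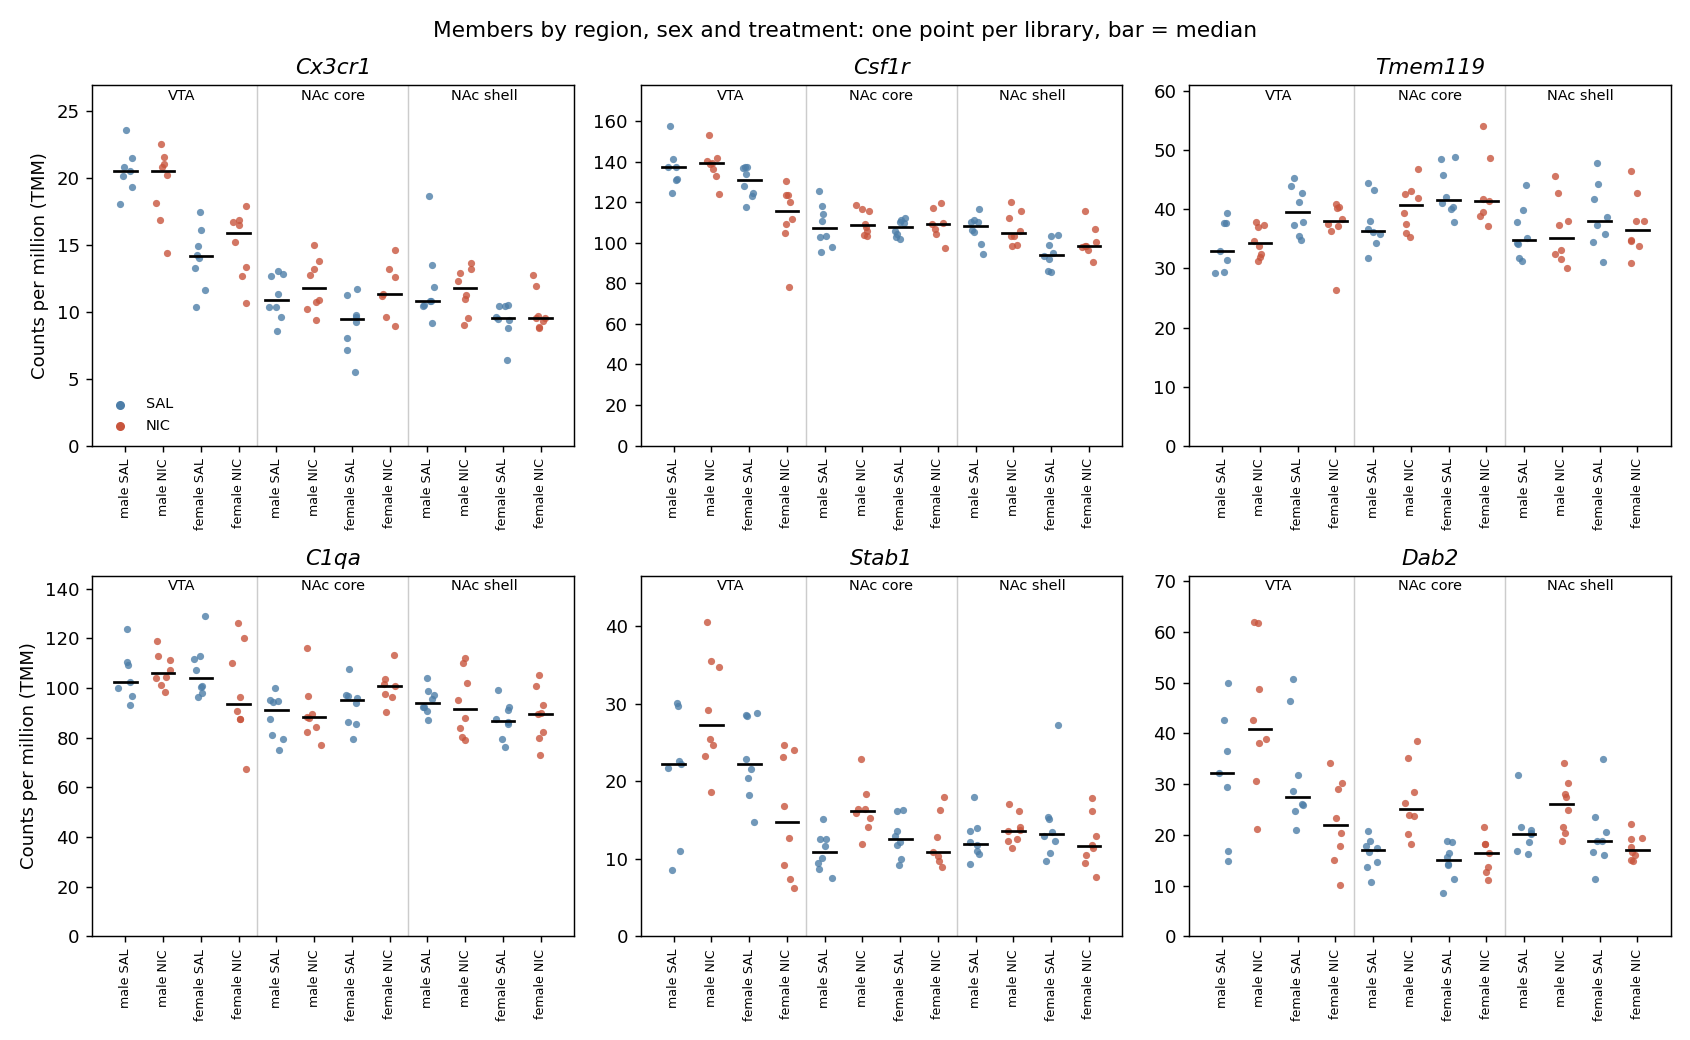
Expression of the 6 members in every analysed library, in CPM (vertical axis, linear from 0) by region, sex and treatment (horizontal axis); each point is 1 library and each bar a group median. The VTA points of Stab1 reach from 6.27 to 40.5 and those of Dab2 from 10.1 to 61.9, wider than in either NAc region.

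In VTA, Cx3cr1 ran from 10.3 to 23.6 CPM with a median of 16.9 (n = 31). In NAc core it ran from 5.48 to 15.0 CPM with a median of 10.9 (n = 31), and in NAc shell from 6.40 to 18.7 CPM with a median of 10.4 (n = 32). The ranges overlapped, but 30 of 31 VTA libraries lay above the NAc median of 10.5 CPM. In the edgeR quasi-likelihood test over all 12 groups, Cx3cr1 was higher in VTA than in NAc core by 0.64 on the log2 scale (SE 0.06, 1.56-fold, adjusted p = 2.94e-16) and than in NAc shell by 0.66 (SE 0.06, 1.59-fold, adjusted p = 2.77e-17). Between core and shell Cx3cr1 did not differ beyond its spread (log2 difference 0.03, SE 0.06, adjusted p = 0.795).

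Csf1r, the growth factor receptor, followed the order VTA, NAc core, NAc shell. Its lowest, median and highest values were 78.3, 132 and 158 CPM in VTA, 95.5, 109 and 126 CPM in NAc core, and 85.6, 102 and 120 CPM in NAc shell. Female VTA NIC 2 gave the lowest VTA value, which lay below every NAc library, while 29 of 31 VTA libraries were above the NAc median. VTA exceeded NAc core by 0.24 (SE 0.03, adjusted p = 6.91e-12) and NAc shell by 0.33 (SE 0.03, adjusted p = 2.58e-18) on the log2 scale, and the core exceeded the shell by 0.09 (SE 0.03, adjusted p = 0.00869), so every neighbour in the order differed by this test. All of these differences were under 1.26-fold.

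C1qa, the complement gene, had medians of 104 CPM in VTA (67.5 to 129), 94.4 CPM in NAc core (75.0 to 116) and 91.0 CPM in NAc shell (73.1 to 112), with 27 of 31 VTA libraries above the NAc median. VTA was higher by 0.16 (SE 0.04, adjusted p = 0.000244) than the core and by 0.19 (SE 0.04, adjusted p = 1.65e-05) than the shell on the log2 scale, whereas core and shell did not pass (log2 difference 0.03, adjusted p = 0.634). Tmem119 was highest in NAc core by its median. Its medians were 37.3 CPM in VTA (26.3 to 45.3), 40.4 CPM in NAc core (31.8 to 54.1) and 36.6 CPM in NAc shell (30.1 to 47.9), and only 9 of 31 VTA libraries lay above the NAc median. Tmem119 was lower in VTA than in NAc core by a log2 difference of -0.18 (SE 0.04, adjusted p = 0.000121), higher in the core than in the shell by 0.14 (SE 0.04, adjusted p = 0.00714), and not called between VTA and shell (log2 difference -0.04, SE 0.04, adjusted p = 0.404).

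Of the perivascular macrophage genes, Stab1 had medians of 22.8 CPM in VTA (6.27 to 40.5), 12.6 CPM in NAc core (7.53 to 22.9) and 12.8 CPM in NAc shell (7.63 to 27.2). Dab2 had medians of 30.1 CPM in VTA (10.1 to 61.9), 17.7 CPM in NAc core (8.47 to 38.5) and 19.7 CPM in NAc shell (11.2 to 35.0). For each of these genes, 26 of 31 VTA libraries were above the NAc median, and the remaining 5 are described after the marker lists. Their spread was also the widest, with coefficients of variation of 26.4% to 41.4% over the regions, against 6.49% to 21.1% for the microglial members. Stab1 was higher in VTA by 0.72 (SE 0.11, adjusted p = 3.01e-09) than in the core and by 0.69 (SE 0.10, adjusted p = 6.74e-09) than in the shell, and Dab2 by 0.81 (SE 0.10, adjusted p = 4.23e-11) and 0.59 (SE 0.10, adjusted p = 2.47e-07), all on the log2 scale. Neither was called between core and shell. The log2 differences were -0.03 (SE 0.11, adjusted p = 0.883) for Stab1 and -0.22 (SE 0.10, adjusted p = 0.101) for Dab2. Without the 4 NAc libraries low in Drd1, Stab1 was higher in VTA by 0.71 and 0.67 and Dab2 by 0.80 and 0.57.

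In all, 6 of the 6 members were called between VTA and NAc core (5 higher in VTA), where 81.6% of all genes tested were called, 5 of 6 between VTA and NAc shell (80.8% of all genes) and 2 of 6 between core and shell (32.3%). The member counts for VTA are thus read against comparisons in which most genes differ, and the count between core and shell against 32.3%. The median log2 difference of the members from VTA to NAc core was 0.44, that of all genes 0.01, and the corresponding values for VTA and NAc shell were 0.46 and 0.00. In these bulk samples fewer cells of a type and less RNA per cell cannot be told apart.

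**Figure D2:**
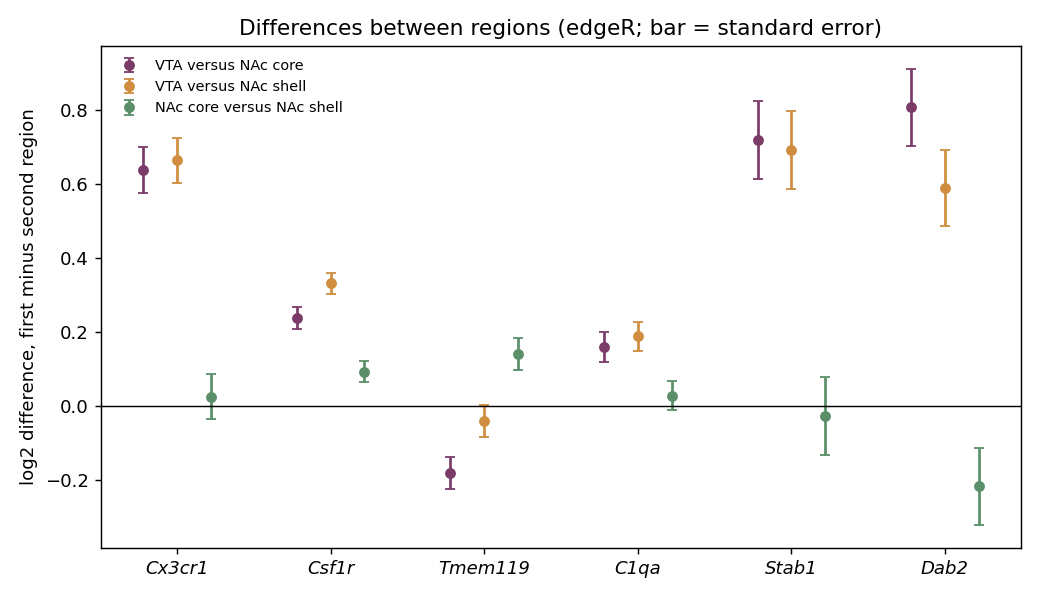
Differences between regions for each member (vertical axis, log2 of the first over the second region, edgeR; horizontal axis, member); points are fitted differences over 94 libraries and bars their standard errors. Cx3cr1, Stab1 and Dab2 lie at 0.59 or above for VTA against either NAc region, and Tmem119 at -0.18 and -0.04.

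The ligands of these receptors differed between regions by more than the receptors. Csf1 was higher in VTA than in NAc core by 1.43 (SE 0.04, adjusted p = 2.46e-51) and than in NAc shell by 1.26 (SE 0.04, adjusted p = 7.80e-48) on the log2 scale. Il34, the other ligand of Csf1r, was lower in VTA, by log2 differences of -0.82 (SE 0.05, adjusted p = 1.54e-26) and -0.65 (SE 0.05, adjusted p = 5.57e-21). Cx3cl1, the ligand of Cx3cr1, was lower in VTA by -1.96 (SE 0.06, adjusted p = 2.51e-49) and -1.63 (SE 0.06, adjusted p = 7.35e-44), opposite in direction to its receptor.

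Marker lists of other genes were set beside the members. A list gene has a name here only where the study's tables pair its identifier with a symbol, and most of these tables hold genes changed by NIC. The counts below stand against a background of 6979 genes higher and 6795 lower in VTA than in NAc core among the 16879 tested (81.6% called in all), and of 6830 higher and 6814 lower against NAc shell (80.8%). Of 17 other microglial genes, 11 were higher and 1 lower in VTA than in NAc core with a median log2 difference of 0.23, and against NAc shell 15 were higher and 1 lower with a median of 0.32. The leading genes against the core were Olfml3 (0.81) and Itgam (0.74), the alpha chain of complement receptor 3, and the gene that was lower was Inpp5d (-0.58), an inositol phosphatase of immune cells. Of 9 border macrophage genes, 7 were higher and 1 lower in VTA than in NAc core, with a median of 0.83, led by F13a1 (1.62), a coagulation factor subunit, and Cd163 (0.92), the haemoglobin scavenger receptor. Against NAc shell 7 of the 9 were higher and 0 lower, with a median of 0.86. Border macrophage genes named here are the markers shared by macrophages of vessels and meninges.

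Complement and endocytosis genes, which surround C1qa and Dab2 in function, were also measured. Among 9 complement genes, 8 were higher in VTA than in NAc core and 0 lower (median 0.74), with C4b (1.43) and C1s (1.26) in front, and against NAc shell 9 were higher (median 0.63). Among 8 endocytic partners of Dab2, 6 were higher and 2 lower in VTA than in NAc core (median 0.38). The lipoprotein receptor Lrp2 (2.82) was among those that rose, and the clathrin adaptor subunit Ap2b1 (-0.22) and the clathrin heavy chain Cltc (-0.10) were lower. Against NAc shell 4 of these partners were higher and 1 lower, with a median of 0.27.

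Of 6 genes of activated microglia, 4 were higher and 1 lower in VTA than in NAc core, Clec7a (1.65) and Lgals3 (1.42) leading and Lpl, a lipoprotein lipase, lower (-1.65). Against NAc shell the counts were again 4 higher and 1 lower, with a median of 0.28. The list of monocyte and other leukocyte genes had 1 named gene, S100a9, at 0.28 against the core (not called) and 0.69 against the shell (called). Lists of cells that border the macrophages were higher in VTA too: 10 of 10 meningeal fibroblast genes (median 1.36), 7 of 7 endothelial genes (median 0.35) and 6 of 7 mural genes (median 0.95) were higher than in NAc core. Their part in the regional differences of Stab1 and Dab2 was not tested. Against NAc shell, 9 of 10 meningeal fibroblast, 7 of 7 endothelial and 6 of 7 mural genes were higher in VTA (medians 0.89, 0.48 and 0.65). Of the remaining lists, 5 of 8 choroid plexus genes (median 1.68, with Aqp1 lower at -2.14), 4 of 6 astrocyte genes (median 1.08, with the glutamate transporters Slc1a3 and Slc1a2 lower at -0.48 and -0.45), 5 of 5 oligodendrocyte genes (median 1.81), 6 of 6 dopamine neuron genes (median 6.65) and the red blood cell gene Alas2 (0.70) were higher in VTA than in NAc shell, and 5 of 6 striatal projection neuron genes were lower (median -3.65). Between NAc core and shell, 0 meningeal fibroblast genes were higher and 8 lower in the core (median -0.51), while Stab1 and Dab2 were not called.

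The 5 VTA libraries at the bottom of the Stab1 and Dab2 ranges had little signal of meningeal fibroblasts. They were male SAL 6 and 7 and female NIC 2, 6 and 8, set apart by under 1 CPM of Slc47a1, a transporter of these fibroblasts, against 3.96 to 20.1 CPM in the other 26. Their summed meningeal fibroblast list lay between 169 and 482 CPM, against 801 to 3243 CPM in the other 26, and their summed border macrophage list between 26.2 and 34.5 CPM against 51.9 to 94.6 CPM. Stab1 was 6.27 to 11.0 CPM in these 5 libraries and 12.6 to 40.5 CPM in the others, and Dab2 was 10.1 to 17.8 CPM against 20.5 to 61.9 CPM, so that neither gene overlapped. Without them the differences of VTA from NAc core were 0.88 for Stab1 and 0.94 for Dab2, and from NAc shell 0.86 and 0.73, on the log2 scale, and the same members were called.

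**Figure D3:**
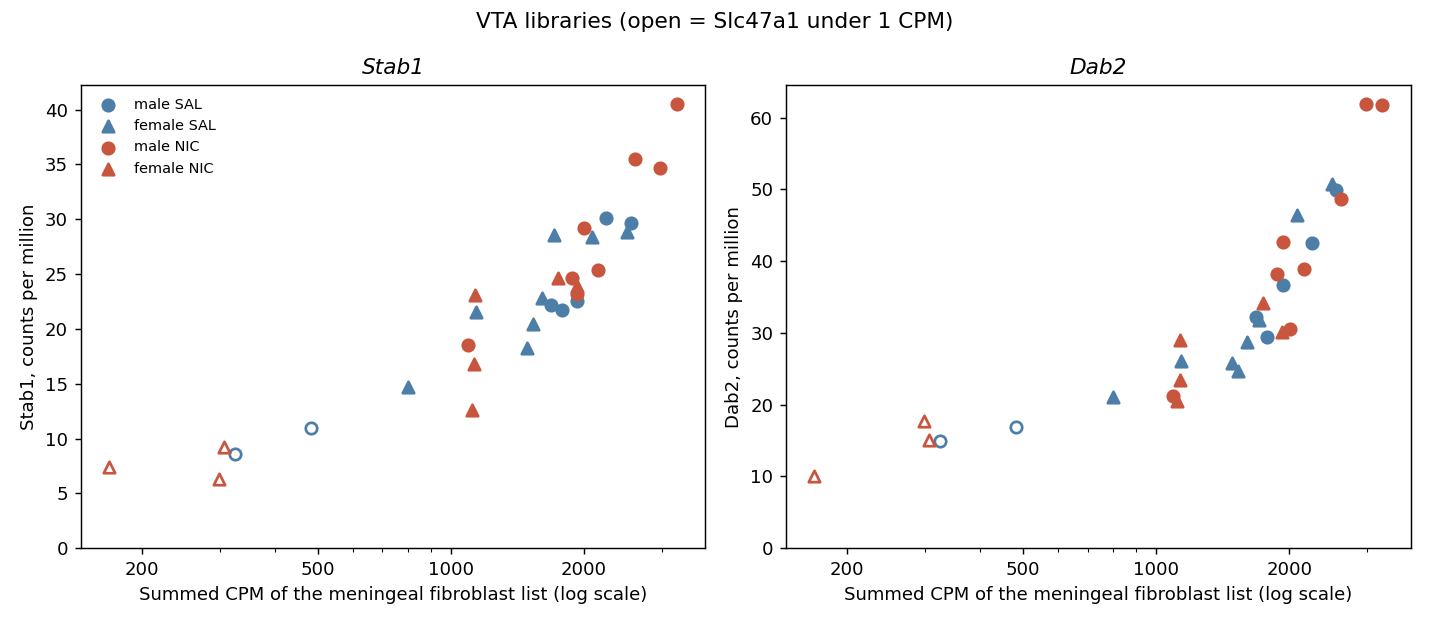
Stab1 (left) and Dab2 (right) in the 31 VTA libraries, in CPM (vertical axis), against the summed CPM of 10 meningeal fibroblast genes (horizontal axis, log scale); each point is 1 library, circles are males, triangles females, and open symbols the 5 libraries with under 1 CPM of Slc47a1. The open symbols lie at the lower left in both panels, at 6.27 to 11.0 CPM of Stab1 and 10.1 to 17.8 CPM of Dab2.

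Variation from rat to rat was examined on log2 CPM with the mean of each group of sex and treatment removed, over the libraries of each region. Stab1 and Dab2 were the pair with the highest r in each region. Their Pearson's r was 0.883 in VTA (n = 31, Spearman's rho = 0.894), 0.828 in the core (n = 31, rho = 0.878) and 0.712 in the shell (n = 32, rho = 0.677), with permutation p = 1e-05, 1e-05 and 5e-05 and adjusted p = 0.00015, 0.00015 and 0.000562 over the 45 relations of 15 pairs in 3 regions. The value 1e-05 is the smallest that 100000 permutations can give. Without the 2 libraries farthest from the median r was 0.911, 0.791 and 0.569, with prep batch means removed it was 0.914, 0.810 and 0.832, and without the 5 VTA libraries low in Slc47a1 it was 0.851 (n = 26).

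The microglial members were less tightly related to each other. In VTA, Csf1r and C1qa had r = 0.805 (rho = 0.721, permutation adjusted p = 0.00015), and r was 0.637 without the 2 farthest libraries (adjusted p = 0.0072) and 0.669 in the 26 libraries (adjusted p = 0.0117). With prep batch means removed it was 0.682, which did not pass (adjusted p = 0.318). Cx3cr1 and Csf1r had r = 0.644 in VTA (rho = 0.670, permutation adjusted p = 0.00162, r = 0.777 with prep batch means removed), which without the 2 farthest libraries was 0.478 (adjusted p = 0.0636) and without female VTA NIC 2 was 0.526 (permutation adjusted p = 0.0293). Tmem119 and C1qa had r = 0.557 in VTA (rho = 0.375, permutation adjusted p = 0.0429) and 0.479 in NAc core (rho = 0.461, permutation adjusted p = 0.0438). The VTA relation of Tmem119 and C1qa rested on female VTA NIC 2, without which r was 0.313 (permutation adjusted p = 0.265), and the core relation had adjusted p = 0.114 without its 2 farthest libraries. Of 15 pairs, 4 passed in VTA, 2 in the core and 1 in the shell. No pair of a microglial with a perivascular macrophage member passed by Pearson's r in any region, whereas by Spearman's rho C1qa and Dab2 passed in VTA (rho = 0.529, permutation adjusted p = 0.0352, against r = 0.382, permutation adjusted p = 0.162). Without the 4 NAc libraries low in Drd1, Tmem119 and C1qa in NAc core did not pass (r = 0.471, adjusted p = 0.0738) and Stab1 and Dab2 kept r = 0.826 in the core and 0.698 in the shell.

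The members were also compared with 5 cell type lists, as the plot of correlations by list shows. Csf1r followed the 17 other microglial genes with r = 0.831 in VTA, 0.667 in the core and 0.627 in the shell (permutation adjusted p = 5.29e-05, 0.000864 and 0.000864 over 90 relations). C1qa did so with r = 0.855, 0.653 and 0.530 (permutation adjusted p = 5.29e-05, 0.0013 and 0.00692). Spearman's rho was between 0.582 and 0.876 for these 6 relations, and each stayed past the threshold without the 2 farthest libraries. With prep batch means removed, r for Csf1r was 0.768, 0.677 and 0.504 and for C1qa 0.839, 0.741 and 0.379, where the NAc shell values did not pass (adjusted p = 0.0694 and 0.210). Tmem119 had r = 0.409, 0.461 and 0.326 with the microglial list, which passed in NAc core alone (permutation adjusted p = 0.0206) and was 0.387 there without the 2 farthest libraries (adjusted p = 0.110). By Spearman's rho that core relation did not pass (0.420, permutation adjusted p = 0.0556). In NAc core Tmem119 also passed with endothelial genes (r = 0.521, permutation adjusted p = 0.0105). That relation did not pass by rho (0.430, permutation adjusted p = 0.0577) or without the 2 farthest libraries (permutation adjusted p = 0.0592). Cx3cr1 did not pass with any list in any region, its r with the microglial list being 0.412, 0.156 and -0.05.

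Stab1 followed the 9 border macrophage genes with r = 0.956 in VTA, 0.799 in the core and 0.727 in the shell, and Dab2 with r = 0.884, 0.850 and 0.671, all past the threshold (rho from 0.636 to 0.928, permutation adjusted p from 5.29e-05 to 0.000864). With prep batch means removed these values were 0.975, 0.803 and 0.699 for Stab1 and 0.912, 0.875 and 0.657 for Dab2, and again all passed. The relations of these members with other cells of the vessel wall and meninges were of similar size. With meningeal fibroblast genes r was 0.924, 0.788 and 0.623 for Stab1 and 0.850, 0.864 and 0.706 for Dab2, and with mural genes 0.873, 0.855 and 0.725 for Stab1 and 0.850, 0.764 and 0.666 for Dab2. Spearman's rho for these 12 relations was between 0.587 and 0.890, and the highest permutation adjusted p was 0.000932. In the 26 VTA libraries with Slc47a1 above the limit, r with border macrophage genes was 0.858 for Stab1 and 0.880 for Dab2, and with meningeal fibroblast genes 0.784 and 0.860. Relations also crossed the 2 sets of members in VTA. With microglial genes r was 0.660 for Stab1 and 0.597 for Dab2 (permutation adjusted p = 0.0015 and 0.00332), and Stab1 passed in the shell as well (r = 0.430, permutation adjusted p = 0.0401, and 0.409 with adjusted p = 0.0557 without the NAc libraries low in Drd1). That shell relation did not pass by Spearman's rho (0.227, permutation adjusted p = 0.356) or without the 2 farthest libraries (r = 0.324, permutation adjusted p = 0.162). In VTA C1qa had r = 0.625 with border macrophage and 0.627 with meningeal fibroblast genes (permutation adjusted p = 0.00692 and 0.00792), and Csf1r had 0.499 and 0.510 (permutation adjusted p = 0.0415 and 0.0452). Without the 2 farthest libraries these 4 values for C1qa and Csf1r did not pass, the lowest adjusted p being 0.0615. The correlations thus do not separate border macrophages from the other cells of vessels and meninges as the cells that Stab1 and Dab2 follow. Most border macrophage and meningeal genes of the lists have a name in the tables at hand because the study listed them as changed by NIC, and the relations use values from which treatment means were removed.

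In number, 20 of 30 relations of a member with a list passed in VTA, 13 in the core and 12 in the shell. With endothelial genes Csf1r had r = 0.623, 0.631 and 0.618 and Stab1 had r = 0.754, 0.708 and 0.698, all past the threshold (highest permutation adjusted p = 0.00453), and without the 2 farthest libraries the VTA value of Csf1r did not pass (r = 0.428, adjusted p = 0.0592). With prep batch means removed, Csf1r in the core (adjusted p = 0.0539) and Stab1 in the shell (adjusted p = 0.0564) did not pass, and the numbers of relations that passed were 16 in VTA, 12 in the core and 8 in the shell. Without the 2 farthest libraries the VTA number was 12, and without the 5 libraries low in Slc47a1 it was 11. The relations that remained past the threshold in those 26 libraries were Csf1r and C1qa with microglial genes, Stab1 with all lists but the microglial, and Dab2 with all 5 lists.

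**Figure D4:**
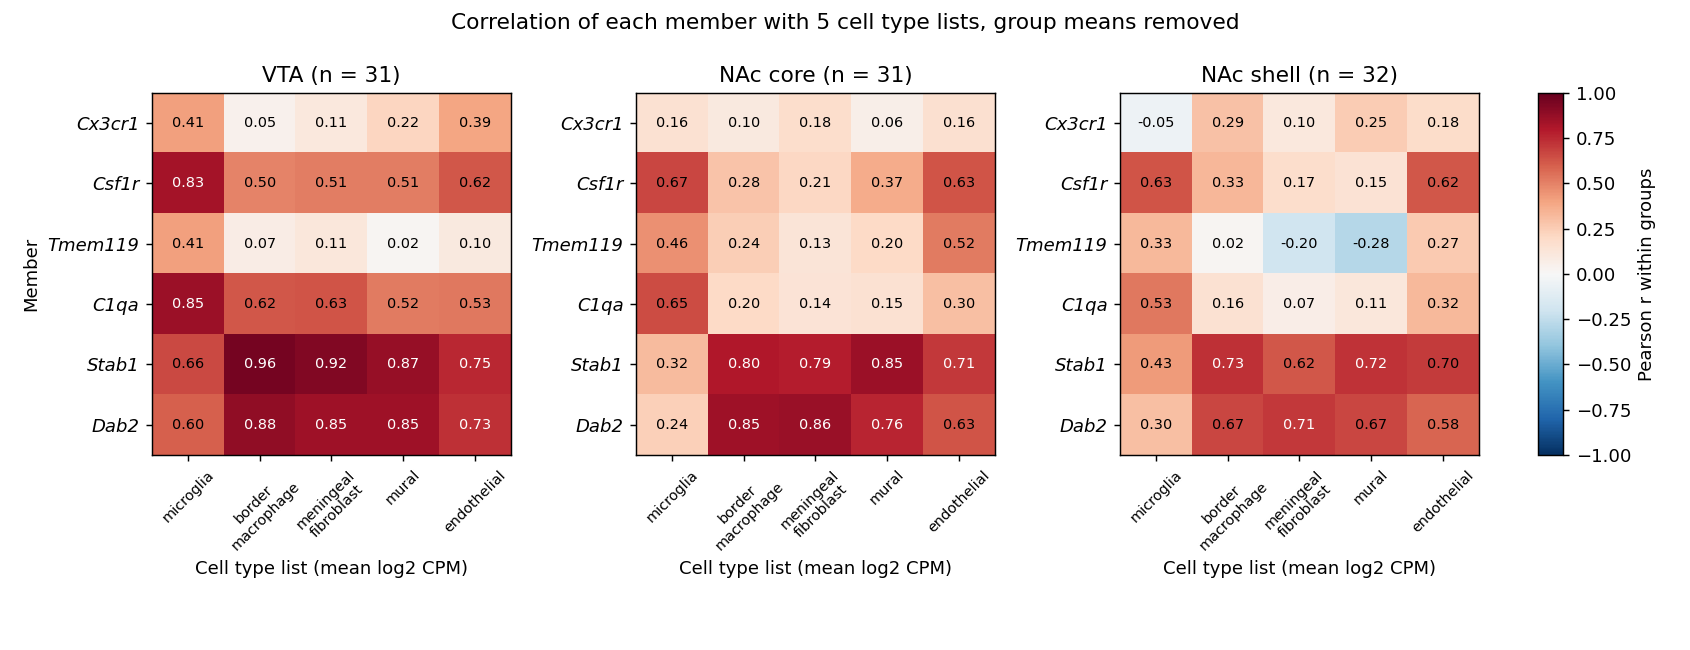
Pearson's r of each member (rows) with the mean of 5 cell type lists (columns) in VTA, NAc core and NAc shell, on log2 CPM with group means removed; colour and printed value give r from -1 to 1. In the border macrophage, meningeal fibroblast and mural columns Stab1 and Dab2 lie at 0.62 or above in every region, and no value of Cx3cr1 is above 0.41.

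The genes most like each member over all 94 libraries, again with group means removed, are given as a description with r and no test. For C1qa the closest was C1qb (0.845), the neighbouring chain of the same complement component, followed by Aldh2 (0.725) and Tmem176b (0.692). Csf1r was closest to Tmem176b (0.710), Laptm5 (0.682) and Fcer1g (0.679), and Tmem119 to Slc2a1 (0.640), Selplg (0.585) and Bdh1 (0.569). Cx3cr1 was closest to LOC103694328 (0.684), Pygb (0.681) and Eif4ebp2 (0.673), none of which is on the microglial list. Stab1 was closest to Cavin1 (0.882), a caveolar coat gene, Slc13a3 (0.881) and Olfml2a (0.881), and Dab2 to Slc5a5 (0.887), Fkbp9 (0.884) and Sned1 (0.882), with Kank2 among the first 5 of both. None of the 5 genes closest to Stab1 or to Dab2 is on the border macrophage list. For scale, 99% of all genes had r under 0.562 with Cx3cr1, 0.470 with Csf1r, 0.370 with Tmem119, 0.486 with C1qa, 0.744 with Stab1 and 0.729 with Dab2.

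Between the sexes, Cx3cr1 was higher in males in VTA and in NAc shell. In VTA, Cx3cr1 ran from 14.4 to 23.6 CPM in males with a median of 20.5 (n = 15) and from 10.3 to 17.9 CPM in females with a median of 14.6 (n = 16). The ranges overlapped in part, and males were higher by 0.46 on the log2 scale (SE 0.08, 1.38-fold, adjusted p = 0.000466). Cx3cr1 was the only 1 of the 6 members called in VTA, where 2.33% of all genes tested were called. In NAc shell, Cx3cr1 (0.28, SE 0.09, adjusted p = 0.0218) and Csf1r (0.13, SE 0.04, adjusted p = 0.0111) were higher in males, 2 of 6 members against 21.0% of all genes. In NAc core, Dab2 was higher in males (0.43, SE 0.13, adjusted p = 0.0084) and Tmem119 lower (-0.15, SE 0.06, adjusted p = 0.0351), 2 of 6 against 32.9%, and with female NAc core NIC 1 added Tmem119 was not called (-0.13, adjusted p = 0.0875). In the same comparison 6 of 6 striatal projection neuron genes were called lower in males (median -0.71), their sums running from 303 to 3232 CPM in males and from 2002 to 4393 CPM in females, and in the shell 0 of 6 were called (median -0.10). Without the 4 NAc libraries low in Drd1, all of them male, Dab2 in the core was 0.46 higher (SE 0.14, adjusted p = 0.0152) and Tmem119 -0.17 (SE 0.06, adjusted p = 0.0403), and in the shell Dab2 passed as well (0.33, SE 0.12, adjusted p = 0.0487). The part of the striatal genes in these differences was not tested.

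Other members came near the threshold in VTA, where DESeq2 called 2 members and 4.55% of all genes. Csf1r was 0.19 higher in males (SE 0.05, adjusted p = 0.0510) and Tmem119 differed by -0.17 (SE 0.06, adjusted p = 0.110). Without female VTA NIC 2 both passed, at 0.16 (adjusted p = 0.0443) and -0.20 (adjusted p = 0.0302). With the prep batch as a covariate, for which only 1 batch links the sexes, Cx3cr1 in VTA differed by 0.68 (SE 0.21, adjusted p = 0.210) and no member was called in VTA or NAc shell, while in NAc core the sexes could not be separated from the batches. Of the 10 meningeal fibroblast genes, 4 were called higher in males in the core and 5 in the shell, and the list's median log2 differences were 0.46 and 0.44. Their part in the difference of Dab2 was not tested.

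The comparison of NIC with SAL asked which of these genes still differed after the injections had ended. By edgeR 0 of 16879 genes (0.0%) were called in each of the 6 comparisons of a sex and region, the members included. At an unadjusted p under 0.05 males had 949 genes in VTA (5.62%), 1660 in the core (9.83%) and 415 in the shell (2.46%), females had 1559, 1088 and 1709 in the same order (9.24%, 6.45% and 10.1%), and DESeq2 called 0, 4, 2, 4, 3 and 9. DESeq2 called 1 member, among its 4 genes in male NAc core (0.0237% of all genes), in a combination that had been used to choose the members. Of the 36 combinations of a member and a comparison, 8 had been used for the choice and 28 had not. The 28 are those absent from tables that list genes with a small unadjusted p in the same libraries, so their lack of small p-values follows from the split and is no result, and their differences are given with errors only.

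The greatest differences were those of Stab1 and Dab2 in male NAc core. Stab1 ran from 7.53 to 15.1 CPM with a median of 10.9 in SAL (n = 8) and from 12.0 to 22.9 CPM with a median of 16.2 in NIC (n = 8). Dab2 ran from 10.8 to 20.8 CPM with a median of 16.9 in SAL and from 18.2 to 38.5 CPM with a median of 25.1 in NIC. The groups overlapped for both genes, with 6 of 8 NIC rats above the highest SAL rat and 8 of 8 above the SAL median. The log2 difference of NIC minus SAL was 0.58 (SE 0.14) for Stab1 and 0.72 (SE 0.15) for Dab2, in a comparison that was used to choose these genes.

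Leaving out each library in turn kept these differences between 0.50 and 0.66 for Stab1 and between 0.62 and 0.78 for Dab2. A prep batch term in the model gave 1.00 (SE 0.23) and 1.14 (SE 0.25). Only prep batch C holds both treatments in male NAc core, so the batch-adjusted values rest on that batch and do not check the others. Without the 3 NAc core libraries low in Drd1, 2 of SAL and 1 of NIC, the differences were 0.57 (SE 0.17) and 0.72 (SE 0.18). Genes of the meninges and of border macrophages are given beside them. The summed meningeal fibroblast list ran from 309 to 708 CPM in male NAc core SAL and from 447 to 1308 CPM in NIC, with 9 of its 10 genes higher at an unadjusted p under 0.05, 0 called and a median log2 difference of 0.55. Of 9 border macrophage genes, 3 were higher and 1 lower at that level (median 0.26), and the median over all genes was -0.01. Over all genes, 9.83% reached that level in either direction. The study's tables of genes changed by NIC hold 9 of the 10 meningeal and 9 of the 9 border macrophage genes. These counts are thus not independent evidence. The part of these list genes in the differences of Stab1 and Dab2 was not tested.

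In VTA, Stab1 and Dab2 differed in opposite directions in the sexes. In males, Stab1 ran from 8.61 to 30.1 CPM with a median of 22.2 in SAL (n = 7) and from 18.6 to 40.5 CPM with a median of 27.3 in NIC (n = 8), a log2 difference of 0.47 (SE 0.24). In females, Stab1 ran from 14.7 to 28.8 CPM with a median of 22.2 in SAL (n = 8) and from 6.27 to 24.6 CPM with a median of 14.7 in NIC (n = 8), a log2 difference of -0.57 (SE 0.27). The groups overlapped in each sex, with 3 of 8 NIC males above the highest SAL male and 4 of 8 NIC females below the lowest SAL female.

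Dab2 in VTA ran from 14.9 to 49.9 CPM with a median of 32.2 in male SAL and from 21.2 to 61.9 CPM with a median of 40.8 in male NIC (log2 difference 0.43, SE 0.26). In females it ran from 21.0 to 50.8 CPM with a median of 27.4 in SAL and from 10.1 to 34.2 CPM with a median of 21.9 in NIC (log2 difference -0.51, SE 0.24). Both pairs of groups overlapped. The male minus female NIC effect in VTA was 1.04 (SE 0.38) for Stab1 and 0.94 (SE 0.37) for Dab2, given without a test because values of Stab1 in both sexes and of Dab2 in females entered the choice. Without female VTA NIC 2 alone the female difference of Stab1 was -0.45.

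The 5 VTA libraries low in Slc47a1 fall unequally, 2 in male SAL, 0 in male NIC, 0 in female SAL and 3 in female NIC. Without them the male differences of NIC from SAL were 0.19 (SE 0.17) for Stab1 and 0.17 (SE 0.22) for Dab2, the female ones -0.18 (SE 0.18) and -0.21 (SE 0.20), and the male minus female NIC effects 0.37 (SE 0.26) and 0.38 (SE 0.32). For Stab1 and Dab2 in turn, the values with these libraries were 0.47 and 0.43 in males, -0.57 and -0.51 in females, and 1.04 and 0.94 for male minus female. Most of each difference was thus absent without these 5 libraries, which were chosen after seeing the data. With all libraries the medians of the meningeal fibroblast list were 0.38 in male VTA and -0.73 in female VTA, those of the border macrophage list 0.27 and -0.52, and those of all genes 0.00 and 0.02.

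Csf1r in female VTA ran from 118 to 137 CPM with a median of 131 in SAL and from 78.3 to 130 CPM with a median of 116 in NIC, with 4 of 8 NIC rats below every SAL rat and 0 of 8 above the SAL median. Its log2 difference was -0.21 (SE 0.08), -0.15 without female VTA NIC 2 and -0.12 (SE 0.06) without the 5 libraries. The other microglial genes did not all follow: 6 of 17 on the list were lower at an unadjusted p under 0.05, 0 were called, and the median was -0.22. In the same comparison the log2 difference was -0.13 (SE 0.11) for C1qa, -0.11 (SE 0.08) for Tmem119 and 0.09 (SE 0.12) for Cx3cr1, and without female VTA NIC 2 these were -0.06, -0.05 and 0.15. Cx3cr1 was 0.04 without female VTA SAL 13. Of the vessel genes, 4 of 7 endothelial (median -0.31) and 5 of 7 mural genes (median -0.40) were lower at an unadjusted p under 0.05 and 0 were called, and their part in the difference of Csf1r was not tested. Over all genes, 9.24% reached that level in either direction. The study's tables of genes changed by NIC hold 15 of these 17 microglial, 6 of 7 endothelial and 7 of 7 mural genes. These counts are thus not independent evidence.

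Cx3cr1 in female NAc core ran from 5.48 to 11.7 CPM with a median of 9.43 in SAL (n = 8) and from 8.90 to 14.6 CPM with a median of 11.3 in NIC (n = 7). The groups overlapped, with 3 of 7 NIC rats above the highest SAL rat. The log2 difference was 0.36 (SE 0.15), and -0.00 (SE 0.28) with the prep batch as a covariate. Only prep batch J holds both treatments among these libraries, so the latter value rests on that batch. Dab2 in male NAc shell ran from 16.2 to 31.7 CPM with a median of 20.2 in SAL and from 18.9 to 34.1 CPM with a median of 26.1 in NIC, a log2 difference of 0.30 (SE 0.14) with 7 of 8 NIC rats above the SAL median.

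The microglial members in the remaining comparisons differed by less. Over the combinations not used for the choice of Cx3cr1, Csf1r, Tmem119 and C1qa, the differences lay between -0.13 (C1qa in female VTA) and 0.11 (C1qa in female NAc core) on the log2 scale with all libraries, and the first of these was -0.06 without female VTA NIC 2. For Stab1, the differences were 0.14 (SE 0.12) in male NAc shell, -0.04 (SE 0.16) in female NAc core and -0.25 (SE 0.20) in female NAc shell. For Dab2 they were 0.12 (SE 0.16) in female NAc core and -0.18 (SE 0.16) in female NAc shell. Both female NAc shell values rested on SAL 13, without which they were -0.06 for Stab1 and -0.02 for Dab2. Single libraries moved the others too. Stab1 in male NAc shell was 0.09 without NIC 13 and 0.23 without SAL 2, Stab1 in female NAc core was -0.15 without NIC 7 and 0.03 without NIC 4, and Dab2 in female NAc core was 0.04 without NIC 7 and 0.19 without NIC 8.

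**Figure D5:**
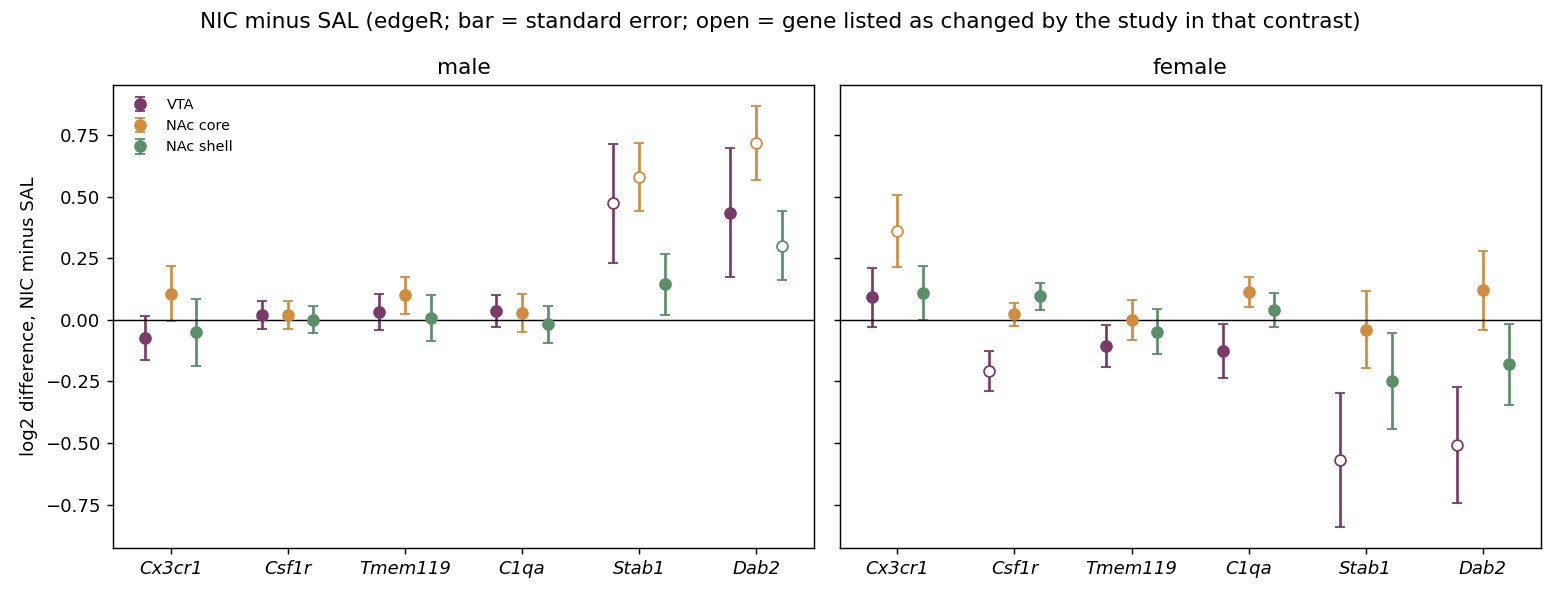
NIC minus SAL for each member (horizontal axis) in males (left) and females (right), as the log2 difference fitted by edgeR (vertical axis); points are differences, bars standard errors, colours regions, and open points the combinations used to choose the members. The male NAc core points of Stab1 and Dab2 lie at 0.58 and 0.72, and their female VTA points at -0.57 and -0.51.

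The male minus female NIC effect was called for 0 genes by edgeR in each region, with 1853 genes at an unadjusted p under 0.05 in VTA, 1500 in the core and 1362 in the shell, and 1, 0 and 2 called by DESeq2. For members and regions not used for the choice, the effects ranged from -0.17 (Cx3cr1 in VTA, SE 0.15) to 0.39 (Stab1 in NAc shell, SE 0.24), and the female difference that enters the latter was -0.06 in place of -0.25 without female NAc shell SAL 13. In NAc core, Stab1 had 0.62 (SE 0.22) and Dab2 0.60 (SE 0.23), and Dab2 had 0.49 (SE 0.22) in NAc shell, all given as descriptions. The ligands showed no call for NIC: Csf1 lay between -0.11 and 0.23, Il34 between -0.22 and 0.27 and Cx3cl1 between -0.16 and 0.15 over the 6 comparisons.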

How the data were processed

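Per the labels and the study's methods, total RNA of 3 brain regions was sequenced in pairs of reads, and the authors trimmed the reads with fastp 0.20.0 and quantified transcripts of Rnor version 6 with Salmon 0.12.0 (versions from the submitters' processing notes), then summed them to genes with tximport. The deposited table holds these counts per gene as whole numbers, not normalized. Salmon shares reads between near-identical transcripts, so counts of close paralogs are estimates. Gene symbols came from the study's supplementary tables, which pair 7964 of 17637 identifiers with a symbol and whose fold changes and p-values were not used.

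Groups came from the labels' sex, treatment and tissue. Of 96 libraries, 2 were left out (female NAc core NIC 1, whose markers were those of VTA, and the first of 2 runs of male VTA SAL 5). Genes with a normalized count above 10 in at least 3 libraries were kept. NIC and SAL were compared within sex and region, regions over all 12 groups and sexes within region, each with edgeR 4.0.16 in R 4.3.3 (TMM, quasi-likelihood test, Benjamini-Hochberg adjustment over 16879 genes, threshold 0.05), with DESeq2 1.42.0 as an alternative. A difference is first minus second on the log2 scale, and "called" means past that threshold. Correlations of log2 CPM (prior count 2) used 100000 permutations within groups (Python 3.11.15, numpy 2.4.6, scipy 1.17.1). The code was tested on simulated data.

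The members and the 16 marker lists were chosen with earlier results of these data known, and of the named list genes most stand in the study's tables of genes changed by NIC, so counts over lists for NIC are not independent evidence. Every member was described in every comparison. List genes named are the 2 greatest and 2 lowest differences among those called, or fewer, and likeness genes are the 5 with the highest r among named genes with a mean of at least 1 CPM. Slc47a1, which sets 5 VTA libraries apart at 1 CPM, and Drd1, which sets 4 NAc libraries apart at 30 CPM, were picked after their values were seen. Total counts of 15868529 to 27736905 per library set the counting precision, which does not cover differences between rats. Alternatives were another normalization, tool, count filter, prior count, covariate, set of libraries and replicate block. Some genes of the gene lists are not reported here by name.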

Additional observations from a re-analysis of the deposited data

Results flagged for a closer look

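In 5 of 72 groups of a member, sex, region and treatment, 1 library lay farther from the others than Dixon's 95% limit allows, where chance would give about 1 group in 20. Cx3cr1 was 18.7 CPM in male NAc shell SAL 6, with the other 7 libraries between 9.17 and 13.5 CPM, and 6.40 CPM in female NAc shell SAL 14, with the others between 8.80 and 10.5 CPM. Tmem119 was 26.3 CPM in female VTA NIC 2, the library with little Th, against 36.3 to 40.9 CPM in the others. Stab1 was 27.2 CPM in female NAc shell SAL 13 against 9.66 to 15.4 CPM, and without that library the NIC difference there was -0.06 in place of -0.25 on the log2 scale for Stab1 and -0.02 in place of -0.18 for Dab2. Dab2 was 31.7 CPM in male NAc shell SAL 2 against 16.2 to 21.5 CPM, and without it the NIC difference was 0.41 in place of 0.30.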

How the results depend on the processing

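No member changed direction in any called comparison under any alternative run. The number of members called between regions (6, 5 and 2) was the same under every alternative. For NIC the number was 0, 1 by DESeq2 in male NAc core and 0 to 0 when each library was left out in turn, which says nothing of stability, since these comparisons in part chose the members. Between the sexes in VTA the number was 1 and became 2 with DESeq2, 0 with the prep batch as a covariate, 2 with all mapped libraries, and 3 without the 5 libraries low in Slc47a1 or without female VTA NIC 2. In NAc core it was 1 in place of 2 with all mapped libraries, and in NAc shell 0 in place of 2 with the prep batch, 3 with DESeq2 and 3 without the 4 NAc libraries low in Drd1. The sex difference in NAc core with the prep batch could not be estimated. Of the pairs, 2 in place of 4 passed in VTA with prep batch means removed and 2 without the 2 farthest libraries, 1 in place of 2 in NAc core by Spearman's rho, 1 without the 2 farthest and 1 without the 4 NAc libraries low in Drd1, and 2 in place of 1 in NAc shell by Spearman's rho and without the 2 farthest. Of the list relations in VTA, 12 in place of 20 passed without the 2 farthest libraries and 11 without the 5 libraries. The causes were not tested, apart from the smaller sets of libraries. Over all genes, the sex calls in VTA were 393, against 768 with DESeq2, 10 with the prep batch, 191 without the 5 libraries and 260 without female VTA NIC 2, and those in NAc shell 3543 against 8 with the prep batch. For NIC, where 0 genes were called, the prep batch gave 1 in male NAc core, a fit of all 12 groups gave 1 in male VTA, 6 in female VTA and 2 in female NAc shell, and leaving out 1 library gave up to 1 in female NAc core and up to 3 in female NAc shell. Between core and shell 5460 genes were called, and 3593 from SAL libraries only.

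With the rat number within sex as a replicate block, the calls were again 6, 5 and 2 of the 6 members, with 13800, 13704 and 5689 genes called in all. Same-numbered libraries of different regions correlated with medians of 0.0193 to 0.0878. Other-numbered libraries had medians of -0.0135 to 0.000889, lower in each sex and pair of regions. Not every same-numbered pair exceeded 0.1, and the numbers were not used as a pairing in the main fit. That fit thus treats libraries that may come from the same rat as independent. NIC and SAL groups share no rat number within a sex and region.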
